A study of Mus musculus with 4 samples.

Results

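The ubiquitin-specific proteases (Usp genes) are the largest family of deubiquitinases, and they were followed here across 4 hormone treatments of a mouse kidney cell line. Members were the probe sets, the groups of short probes that each report 1 transcript, whose only annotated symbol was Usp followed by a number and at most 1 letter. Usp18 was left out. This gave 121 probe sets of 47 genes, among 18193 genes in all, and a gene was read from its brightest probe set by mean log2 signal. Of the 47 genes, 42 had a mean signal (geometric, over the 4 arrays) that reached the median over probe sets, 55.9, and entered the comparisons, with 11057 genes in all.

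The cells were mDCT, an immortalised line from the mouse distal convoluted tubule, and every sample carried a FLAG-tagged human mineralocorticoid receptor (MR) from a transfected plasmid. After transfection for 48 h they received ethanol, 1 nM aldosterone, 100 nM aldosterone, or 5 µM spironolactone, an MR blocker, followed 2 h later by 100 nM aldosterone. Exposure lasted 3 h, and the last treatment is called spironolactone below. Each treatment was measured on 1 array, so no difference could be set against replicate error, no test was possible, and every difference below is one between arrays. No array of spironolactone alone was analysed here, and the comparisons share arrays with each other.

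Ubiquitin is a small protein that ligases attach to other proteins to mark them for the proteasome, for endocytosis or for signalling, and Usp enzymes cut it off again. In the aldosterone-sensitive nephron the ligase Nedd4-2 removes the epithelial sodium channel ENaC from the cell surface. Usp2, whose short isoform was described as induced by aldosterone in mouse kidney, opposes that ligase at the channel. Usp2 is also a clock-controlled gene in several tissues, and its protein stabilises cyclin D1 and Mdm2 in human cells.

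The trimmed mean of the signals, without 2% of probe sets at each end, was 500.0 on all 4 arrays, and over the genes that entered the correlation between arrays lay between 0.991 and 0.992. Of the genes listed here as markers of the distal convoluted tubule 7 of 14 on the array entered. The summed signal of the 14 lay between 8005 and 9296, most of it from the kinase gene Wnk1 (6878 to 8372). The defining transporter gene Slc12a3 stayed under the filter, with a signal of 3.93 in ethanol, 17.2 with 1 nM, 12.1 with 100 nM and 4.35 with spironolactone. Of the markers of other nephron cells 5 of 12 entered, and the 12 summed to 2950 to 3336, most of it from Aqp1 (2069 to 2479). Each of these sums thus rests mainly on 1 gene and is no measure of cell identity. Of those of fibroblasts, endothelium and leukocytes 2 of 11 entered, and the 11 summed to 316 to 363. Sgk1, an aldosterone-induced kinase gene whose product restrains Nedd4-2, had a signal of 801 in ethanol, 935 with 1 nM, 1810 with 100 nM and 1424 with spironolactone. A lower signal cannot be told apart from fewer cells that make the transcript.

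Across the treatments 1 Usp transcript, Usp2, passed 1.5-fold, and the family's ranges are given beside those of genes of like signal. Over the 4 arrays the highest signal was at least 1.5-fold above the lowest in 1 of the 42 members, where 12.1% of all genes that entered had such a range. Among genes at or above the 75th percentile of signal (420) the share was 1.54%, and 0 of the 33 members there passed, a count near that background. Between the filter and that percentile the share was 29.8%, and 1 of 9 members passed. The median range was 0.20 on the log2 scale for members and 0.22 for all genes that entered. At matched signal it was 0.19 for the 33 bright members and 0.16 for all bright genes, and 0.26 for the 9 dimmer members and 0.42 for genes of that level. Ranges reached a log2 value of 0.32 in 9 members, or 21.4%, beside 32.5% of the genes that entered. The share was 15.2% for the bright members, beside 12.3% of bright genes, and 44.4% for the dimmer ones, beside 66.6%. The family's median range and shares were thus lower over all signals and among dim genes. Among bright genes its median range and its share at 0.32 were slightly higher, but not its share at 1.5-fold. With 33 bright and 9 dimmer members, 1 gene more or fewer shifts these shares, and the gaps were not tested.

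**Figure D1:**
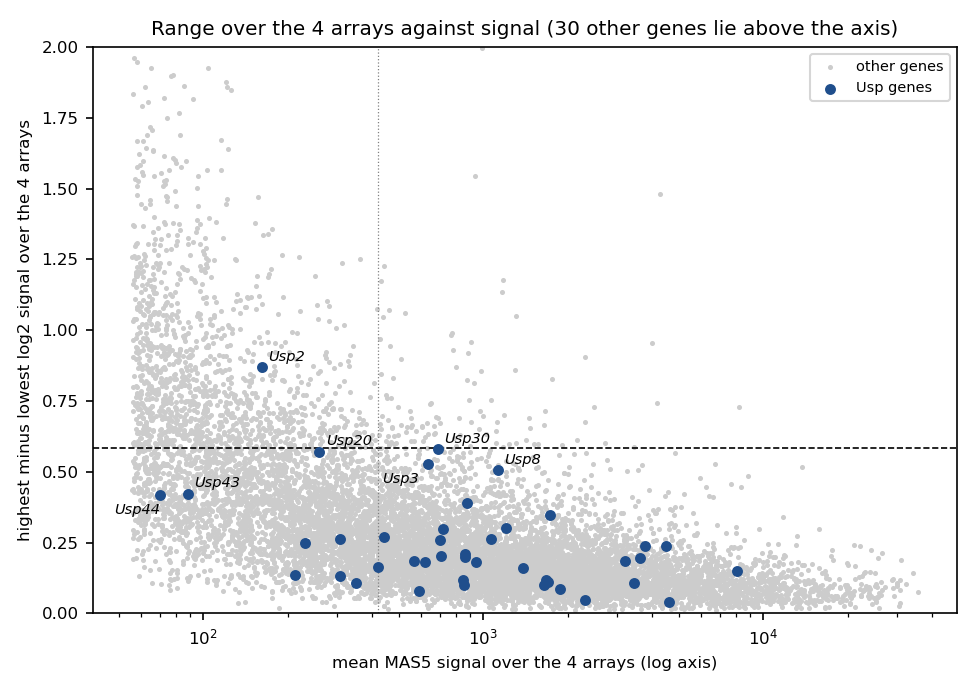
Range over the 4 arrays (highest minus lowest log2 signal, vertical axis) against mean MAS5 signal (log axis) for the genes that entered, with Usp genes in blue and the dashed line at 1.5-fold. The dotted line marks the 75th percentile of signal (420), 30 other genes lie above the axis, and Usp2 is the 1 Usp gene above the dashed line.

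Usp2 was the member that differed most. It read 169 on the ethanol array, 175 at 1 nM, 113 at 100 nM and 206 after spironolactone. The 100 nM array was the lowest and the spironolactone array the highest, while ethanol and 1 nM lay close together. With 100 nM aldosterone it was lower than in ethanol by -0.59 on the log2 scale, just past 1.5-fold, and than with 1 nM by -0.64 (1.56-fold). With spironolactone it was higher than with 100 nM aldosterone alone by 0.87 (1.83-fold) and than in ethanol by 0.28.

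These values rest on a dim probe set, ranked 40 of 47 members by mean signal, at 162. The only other Usp2 probe set was dimmer still, with a mean signal of 46.0, under the filter. It read 51.9 in ethanol, 32.2 with 1 nM, 49.6 with 100 nM and 54.1 with spironolactone. There the lowest array was that of 1 nM, not of 100 nM. Its difference between 100 nM and ethanol was -0.07, between 100 nM and 1 nM 0.62, and between spironolactone and 100 nM 0.13. The probe sets therefore shared the highest array but not the lowest. The annotation gives both the same accession, and no source used here says whether they part the isoforms. Genes between the filter and the 75th percentile, as Usp2 is, passed 1.5-fold in these 3 directions in 4.3% (100 nM below ethanol), 5.02% (100 nM below 1 nM) and 4.54% (spironolactone above 100 nM). The 1.5-fold count against ethanol was also at its limit: after quantile normalization the difference was -0.55 and with 50 added to each signal -0.43. As the median over both probe sets it was -0.33, and that between 100 nM and 1 nM was -0.0087.

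The start of Usp2 is shown because the gene is described as hormone- and clock-controlled. The window runs from 250 bases before to 50 after that start, at chr9:44084670-44084969 on the + strand of GRCm38.p6. That of Usp8, the member highest with 100 nM aldosterone against ethanol, follows it, at chr2:126707078-126707377 on the + strand. Capitals mark every match to a searched motif on either strand.
Usp2: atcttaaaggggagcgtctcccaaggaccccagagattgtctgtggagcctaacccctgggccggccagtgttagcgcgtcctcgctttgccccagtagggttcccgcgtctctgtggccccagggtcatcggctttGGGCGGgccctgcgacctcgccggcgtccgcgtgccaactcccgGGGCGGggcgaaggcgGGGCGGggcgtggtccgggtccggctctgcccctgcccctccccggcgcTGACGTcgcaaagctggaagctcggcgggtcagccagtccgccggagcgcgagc
Usp8: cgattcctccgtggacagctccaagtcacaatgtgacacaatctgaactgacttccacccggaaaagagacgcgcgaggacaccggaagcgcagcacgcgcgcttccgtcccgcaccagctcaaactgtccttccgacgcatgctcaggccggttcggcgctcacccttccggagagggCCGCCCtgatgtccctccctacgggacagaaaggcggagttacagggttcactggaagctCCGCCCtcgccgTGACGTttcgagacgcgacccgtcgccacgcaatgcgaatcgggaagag
The motifs were the full steroid receptor element (AGAACA, 3 bases of any kind, then TGTTCT), its 6-base part AGAACA, the E-box CACGTG bound by clock factors, the cAMP element TGACGTCA, its 6-base part TGACGT and the GC box GGGCGG, the last 2 added after the sequences had been seen.

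Neither window held the steroid element, its part, the E-box or the full cAMP element, so the capitals in both are TGACGT and GGGCGG (or its complement CCGCCC). Usp2 had TGACGT starting 4 bases before the start site and 3 GC boxes. Usp8 had TGACGT beginning 1 base into the 50 bases after it and 2 GC boxes. Over the 36 members with a window in the table, 0 held the full steroid element, against 1 of 27025 windows of all genes. AGAACA was in 3 of the 36 (Usp13, Usp19 and Usp45), against 19.0% of all windows, and CACGTG in 4 (Usp4, Usp16, Usp31 and Usp32), against 7.24%. TGACGTCA was in 1 (Usp29), against 1.88%. TGACGT, which lies within it, was in 7, against 7.64%, and GGGCGG in 24, against 35.9%. The member windows had a median GC content of 65%, against 52.7% for all. Usp2 stood at 71.7% and Usp8 at 62.7%. A match is no evidence of binding. Regulatory elements farther off, and any other start sites of these genes, were not searched.

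By the probe sets used, Usp8 and Usp10, the other members tied to membrane traffic and to ENaC, differed from Usp2. Usp8 removes ubiquitin from receptors on endosomes, where it works with the sorting proteins Stam and Stam2. It read 961 on the ethanol array, 1126 at 1 nM, 1365 at 100 nM and 1097 after spironolactone. Its signals were ordered by dose, and the spironolactone array lay between ethanol and 100 nM. With 100 nM it was higher than in ethanol by 0.51 (1.42-fold), the largest such difference of any member, and with spironolactone lower than with 100 nM alone by -0.31. A second, dim Usp8 probe set read 81.4 in ethanol, 72.0 with 1 nM, 94.7 with 100 nM and 86.3 with spironolactone. It too was highest with 100 nM, by 0.22 over ethanol, but the 1 nM array was its lowest.

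Usp10 binds the stress granule protein G3bp1 and is described as raising surface ENaC after vasopressin. It read 1383 in ethanol, 1314 with 1 nM, 1471 with 100 nM and 1370 with spironolactone. Its largest difference was 0.16, between 100 nM and 1 nM, a range below the members' median. By the probe sets used, at 100 nM Usp2 thus stood lowest, and Usp8 and Usp10 stood highest, of the 4 arrays. The dimmer Usp2 probe set was lowest with 1 nM instead, with -0.07 between 100 nM and ethanol. For Usp10, read by 1 probe set, that difference was only 0.09.

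**Figure D2:**
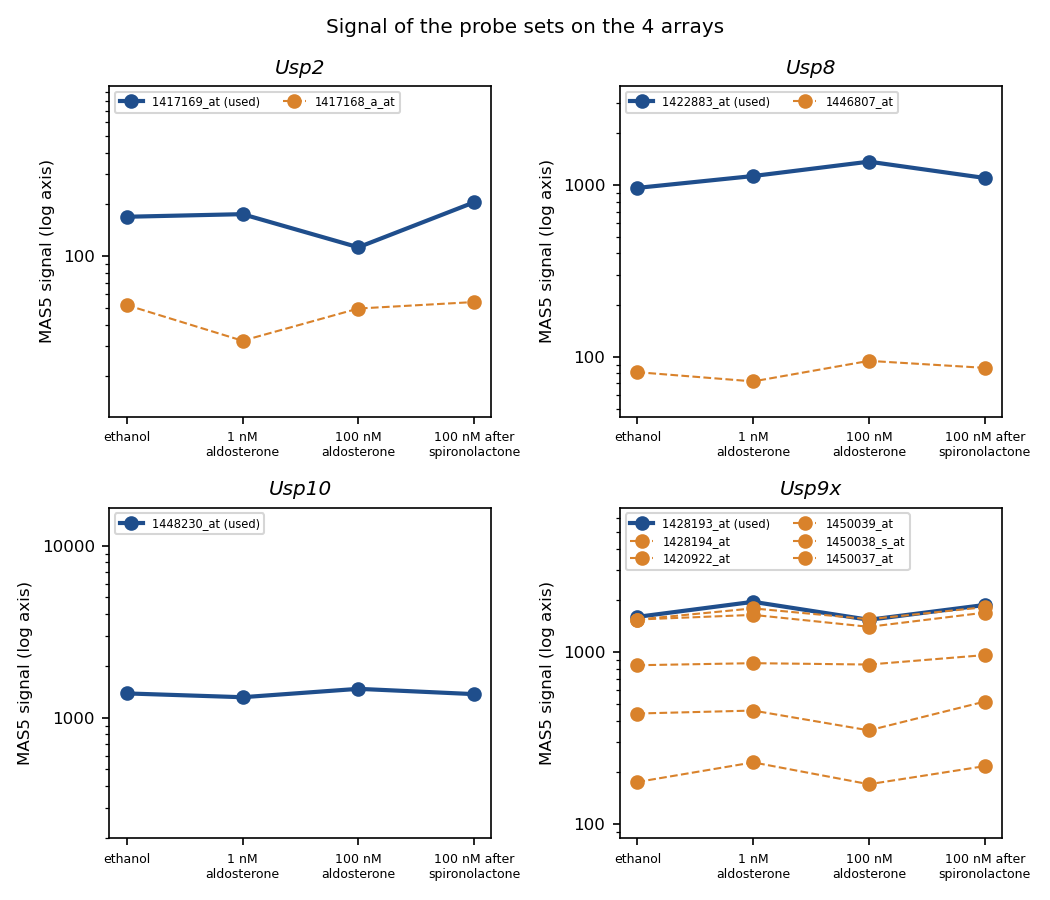
MAS5 signal (log axis, the same span in each panel) of Usp2, Usp8, Usp10 and Usp9x on the 4 arrays, with the probe set used as a thick line and the others as dashed lines. For Usp2 both probe sets are drawn and for the other genes those at or above the filter. The Usp2 probe sets part at 1 nM and 100 nM, while the 6 Usp9x probe sets run alongside each other.

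With 100 nM aldosterone against ethanol, 0 of 42 members were at least 1.5-fold higher, against 2.39% of the genes that entered, and 1 was lower (Usp2), against 1.72%. Most such genes were dim. At or above the 75th percentile, where 33 members lie, 16 of 6936 genes were higher and 13 lower, and below it 248 and 177 of 4121. In each of the 5 comparisons 0.389% to 0.634% of bright genes passed in either direction. Counts of 0 among the 33 bright members are therefore near the background throughout. The median difference was -0.00096 over the members and -0.0046 over all genes that entered, with 21 members above and 21 below 0. After Usp8 the highest were Usp30, the mitochondrial protease that opposes mitophagy, at 0.27, and Usp40 at 0.20. After Usp2 the lowest were Usp42, a p53 deubiquitinase in human cells, at -0.30 and the histone H2B protease Usp49 at -0.25. Usp42 read 1312 in ethanol, 1178 with 1 nM, 1064 with 100 nM and 1299 with spironolactone, so it was ordered downward by dose and lay at the ethanol level with spironolactone. The second Usp30 probe set did not follow the first, with -0.0048 between 100 nM and ethanol.

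With 1 nM aldosterone against ethanol, 0 members were higher by 1.5-fold (background 2.61%) and 0 lower (2.07%). The members' median was 0.014 and that of the genes that entered -0.0064. Usp3, which removes ubiquitin from histone H2A, stood highest at 0.36, with a signal of 792 against 619. The next were Usp9x at 0.29 and Usp44, a regulator of the mitotic checkpoint, at 0.28. Lowest were Usp30 at -0.31, Usp49 at -0.21 and Usp46 at -0.20. Usp3 had 4 probe sets at or above the filter, and 3 of them were above 0.

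Between the doses, 0 members were 1.5-fold higher with 100 nM than with 1 nM (background 2.04%) and 1 was lower (Usp2; 1.96%), with a median of -0.037 over members and 0.0047 overall. Usp30 came nearest on the other side, with 834 at 100 nM against 558 at 1 nM, a difference of 0.58, while its second probe set gave -0.06. Usp20, which works on adrenergic receptors and on the hypoxia pathway, followed at 0.31, and Usp8 at 0.28. Usp44 at -0.42 and Usp3 at -0.37 were lowest after Usp2.

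Of the 42 members 7 had signals that climbed in the order ethanol, 1 nM and 100 nM, and 6 had signals that descended in it. These are 16.7% and 14.3% of the members, beside 16.1% and 16.5% of the genes that entered. The 7 were Usp1, Usp8, Usp15, Usp33, Usp38, Usp47 and Usp54, and the 6 were Usp7, Usp12, Usp16, Usp21, Usp42 and Usp49. Apart from Usp8 at 0.51 and Usp42 at -0.30, the difference between 100 nM and ethanol in these genes lay between -0.25 and 0.18. With spironolactone 5 of the 7 were lower, and 5 of the 6 higher, than with 100 nM alone, as were 1399 of 1777 and 1415 of 1819 genes overall. Since the 100 nM array is the extreme of each such order, a turn back is favoured by the choice.

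**Figure D3:**
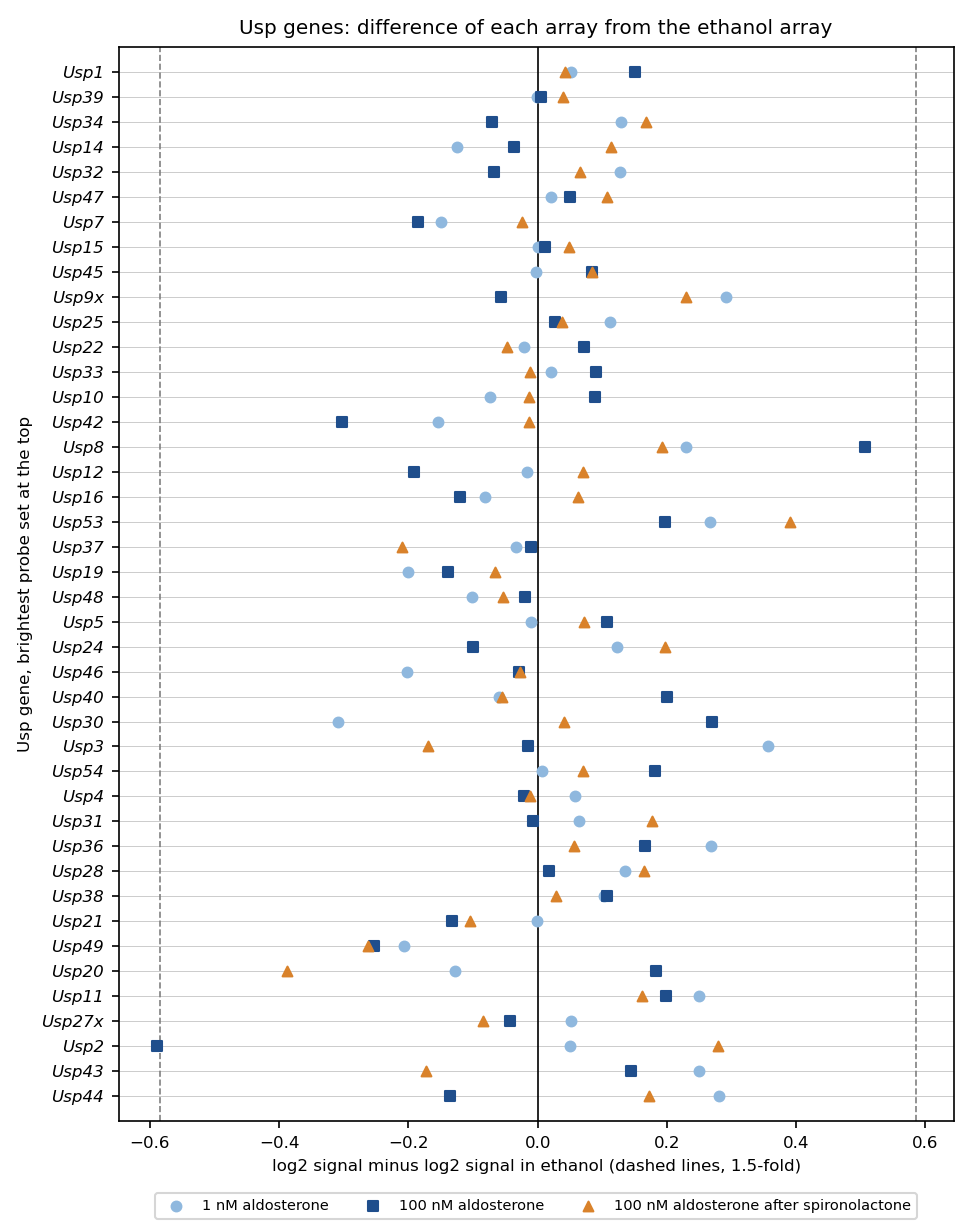
Log2 signal of the 42 Usp genes with 1 nM aldosterone (circles), 100 nM aldosterone (squares) and spironolactone (triangles), minus that of the ethanol array (horizontal axis), with dashed lines at 1.5-fold. The Usp2 square at -0.59 is the only symbol past a dashed line, and the Usp8 square at 0.51 comes nearest on the other side.

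With spironolactone against 100 nM aldosterone alone, 1 member was 1.5-fold higher (Usp2, against 1.83% of the genes that entered) and 0 were lower (2.51%). The median was 0.0055 over members and -0.0027 overall. After Usp2 the highest were Usp44 at 0.31 and Usp24, a large protease linked to DNA damage responses, at 0.30. The lowest were Usp20 at -0.57, with a signal of 211 against 313, then Usp43 at -0.32 and Usp8 at -0.31. The other Usp20 probe sets were all under the filter.

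With spironolactone against ethanol, 0 members were 1.5-fold higher (background 2.17%) and 0 lower (2.03%), with a median of 0.041 over members and -0.0067 overall. Usp53, a tight junction protein of the family long classed as inactive, stood highest at 0.39, with 986 against 753. Its dimmer probe sets gave -0.21 and -0.37, so they went the other way. Usp2 at 0.28 and Usp9x at 0.23 followed. Usp20 at -0.39, Usp49 at -0.26 and Usp37, a cyclin A protease, at -0.21 were lowest. The second Usp37 probe set gave -0.22.

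Usp9x was read by 6 probe sets above the filter, and they took much the same course. This X-linked protease acts in cell polarity and in TGF-beta signalling, where it removes ubiquitin from Smad4. The probe set used read 1603 in ethanol, 1961 with 1 nM, 1542 with 100 nM and 1880 with spironolactone. The 1 nM and spironolactone arrays were high and the ethanol and 100 nM arrays low. All 6 probe sets at or above the filter were higher with 1 nM than in ethanol, by 0.04 to 0.38, and all 6 were lower with 100 nM than with 1 nM, by -0.03 to -0.42. All 6 were higher with spironolactone than with 100 nM, by 0.18 to 0.56. A further Usp9x probe set, at a mean signal of 19.9, under the filter, went the other way in that last comparison, by -0.27. The probe sets share the RNA and the arrays, so their accord is no replicate of the treatments.

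The same course, with 1 nM and spironolactone both above ethanol and 100 nM, was taken by 10 members, or 23.8%, beside 16.8% of the genes that entered. They were Usp2, Usp9x, Usp24, Usp25, Usp28, Usp31, Usp32, Usp34, Usp44 and Usp53. Of all ways to part the arrays into 2 high and 2 low, this one held the most members. The others held 11.9% to 16.7% of members, beside 14.0% to 18.5% of the genes that entered. The gaps were not tested. The course also asks for no size: Usp25 counts with a range of 0.11 and only 0.01 between spironolactone and 100 nM. Usp34, which acts on axin in Wnt signalling, read 4316 in ethanol, 4721 with 1 nM, 4112 with 100 nM and 4846 with spironolactone. Usp24 read 693, 755, 647 and 795 in the same order of treatments. The 3 Usp24 probe sets at or above the filter were all higher with spironolactone than with 100 nM, by 0.18 to 0.65. Another, at a mean signal of 31.2, was lower. The 3 of Usp34 were also higher, by 0.03 to 0.36. With 1 nM against ethanol probe sets accorded less. The next brightest at or above the filter gave -0.21 for Usp34, -0.00056 for Usp24, -0.43 for Usp31 and -0.10 for Usp53. It gave 0.22 for Usp9x and 0.70 for Usp32, and the remaining members of this course have no second one above the filter. By contrast, both aldosterone arrays without spironolactone were the 2 highest in 7 members, or 16.7%, beside 17.8% of the genes that entered. These were Usp1, Usp8, Usp11, Usp33, Usp36, Usp38 and Usp43.

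By role, Usp7, Usp16, Usp22 and the other proteases of histones and chromatin numbered 9, and 7 of them were below 0 with 100 nM aldosterone against ethanol, with a median of -0.12, beside 5677 of the 11057 genes that entered. Usp7, which also controls Mdm2 and p53, read 3423 in ethanol, 3084 with 1 nM, 3010 with 100 nM and 3367 with spironolactone. The 6 Usp7 probe sets that passed the filter did not go one way: 4 were below 0 with 100 nM against ethanol and 2 above. Usp22, the protease of the SAGA coactivator complex, differed by 0.07 and Usp16, an H2A protease, by -0.12, but a dim second Usp16 probe set gave 0.49. Of the rest, Usp36 stood at 0.17, Usp3 at -0.01, Usp27x at -0.04, Usp21 at -0.13 and Usp44 at -0.14, with Usp49 lowest at -0.25.

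The 8 proteases of DNA repair and the cell cycle had a median of 0.03 and lay between -0.10 and 0.20. Usp1, which with its partner Wdr48 acts on PCNA and Fancd2, had the highest mean signal of all members and read 7696 in ethanol, 7972 with 1 nM, 8542 with 100 nM and 7926 with spironolactone. Its other probe sets gave 0.01 and -0.10 between 100 nM and ethanol. Usp11, Usp28, Usp45, Usp47 and Usp48 differed by 0.20, 0.02, 0.08, 0.05 and -0.02.

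Usp12 and Usp46, close relatives that also bind Wdr48, had -0.19 and -0.03 with 100 nM against ethanol. The Usp12 probe set used read 1090 in ethanol, 1078 with 1 nM, 955 with 100 nM and 1145 with spironolactone, and its second probe set was likewise lowest with 100 nM and highest with spironolactone (61.7, 57.7, 47.2 and 62.1 in that order of treatments). Another Usp12 probe set, under the filter, was lowest in ethanol. Among cofactors Wdr48 itself read 894 in ethanol, 842 with 1 nM, 1081 with 100 nM and 840 with spironolactone. Wdr20, the other subunit of these complexes, ran opposite to Wdr48, with 596, 767, 531 and 723. Wdr20 was lower with 100 nM than with 1 nM by -0.53.

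Of the proteases of free ubiquitin and the proteasome 2 entered. Usp14, which sits on the proteasome, read 3810 in ethanol, 3494 with 1 nM, 3714 with 100 nM and 4123 with spironolactone. Usp5, which takes apart unanchored ubiquitin chains, read 819, 814, 882 and 861. A second Usp14 probe set, of a type that can also catch related transcripts, gave 0.42 between 100 nM and ethanol where the one used gave -0.04.

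The 6 proteases of organelles and membrane traffic had a median of 0.14 with 100 nM against ethanol, and of -0.17 with spironolactone against 100 nM. By the probe sets used, Usp20, Usp30, Usp33 and Usp40 were above 0 in the first comparison and below 0 in the second. The other probe sets above the filter did not share this for Usp30 (-0.0048, then 0.15) or for Usp40 (0.0043 and -0.48, then 0.11 and 0.17), and Usp20 and Usp33 have no other above it. Usp19, anchored in the endoplasmic reticulum, differed by -0.14 and 0.07, and Usp32 by -0.07 and 0.13. These medians are descriptions of 6 genes that share the 100 nM array in both comparisons.

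The 4 entered proteases of Wnt, TGF-beta and polarity signalling, Usp4, Usp9x, Usp15 and Usp34, lay between -0.07 and 0.01 with 100 nM against ethanol. Usp15 read 2293 in ethanol, 2295 with 1 nM, 2310 with 100 nM and 2371 with spironolactone. The range of Usp15, 0.05, was the second smallest of the 42, after Usp39, a splicing factor without protease activity, at 0.04. The brightest other Usp15 probe set read 162, 177, 112 and 199 in that order. None of the other Usp15 probe sets above the filter, all dim, shared the small range: theirs were 0.83, 0.50 and 0.45. Nor did the other Usp39 probe set, at a mean signal of 1667, whose range was 0.24. The Usp39 probe set used is of the type that can also catch related transcripts. The 3 linked to NF-kB and innate signalling, Usp25, Usp31 and Usp38, lay between -0.01 and 0.11 with 100 nM against ethanol. Usp53 and its close relative Usp54 stood at 0.20 and 0.18 in that comparison, and the dim Usp43 at 0.14.

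The 5 members under the filter were Usp13, Usp26, Usp29, Usp50 and Usp9y. Usp13, a relative of Usp5, had a mean signal of 50.5, just under the filter, while Usp44 at 70.4 was the dimmest member above it. Usp13 read 61.5 in ethanol, 47.9 with 1 nM, 56.2 with 100 nM and 39.5 with spironolactone. Usp29 had a mean signal of 10.0. Usp26, Usp50 and the Y-linked Usp9y read between 1.79 and 27.6 over the arrays. At such signals, with no detection calls at hand, their differences carry no reading and no fold is given.

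Agreement between probe sets set the limit for single genes. Of the members that entered, 26 had more than 1 probe set at or above the filter. The brightest and the next brightest had the same sign in 16 of 26 with 100 nM against ethanol, in 10 with 1 nM against ethanol and in 15 with 100 nM against 1 nM. The count was 20 with spironolactone against 100 nM and 16 with spironolactone against ethanol. Across these 26 genes the differences of the paired probe sets correlated at r = 0.11 (rho = 0.07) with 100 nM against ethanol. For 1 nM against ethanol r was -0.14 (rho = -0.20), and for spironolactone against 100 nM it was 0.30 (rho = 0.36). The points share 4 arrays and genes are not replicates, so these are descriptions. The median gap between paired probe sets, 0.13 to 0.22, was in each of the 5 comparisons larger than the median size of the members' differences, 0.07 to 0.13.

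**Figure D4:**
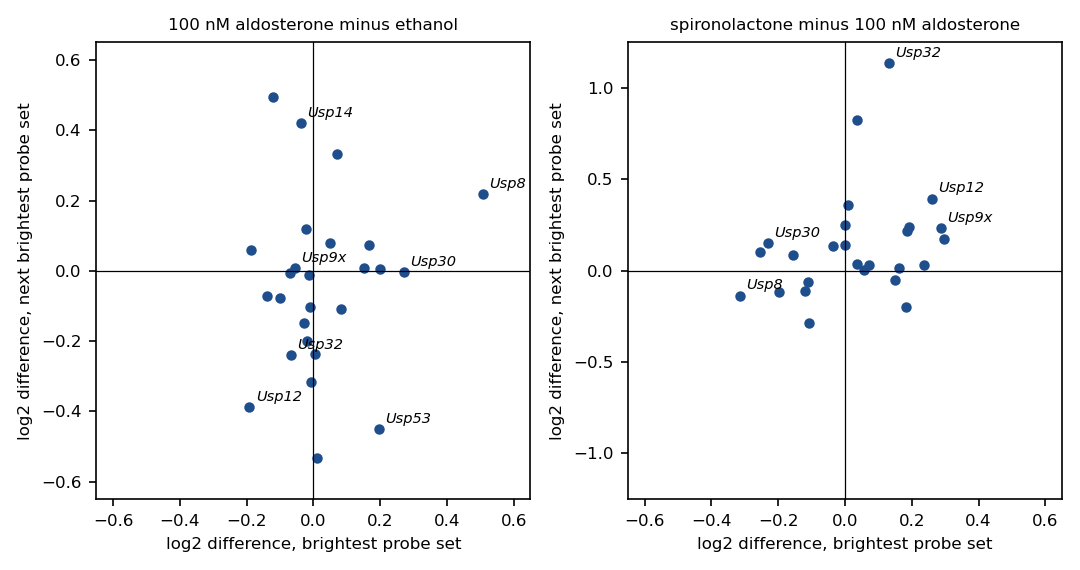
Log2 difference in the next brightest probe set (vertical axis) against that in the brightest (horizontal axis) for the 26 Usp genes with several probe sets at or above the filter, with 100 nM aldosterone minus ethanol on the left and spironolactone minus 100 nM aldosterone on the right (vertical scales differ). Points at the upper right and lower left of the crossing lines have the same sign in both, 16 of 26 on the left and 20 of 26 on the right.

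Of the 40 deubiquitinases of other families on the array 37 entered, and 0 of them were 1.5-fold higher or lower in any of the 5 comparisons. Of the 37, 32 were at or above the 75th percentile, where 0.389% to 0.634% of all genes passed in either direction, so a count of 0 is near the background. Their median difference was -0.03 with 100 nM against ethanol and 0.0039 with spironolactone against 100 nM. The OTU protease Otud5 differed most with 100 nM against ethanol, at 0.41 (339 against 256), and by -0.43 with spironolactone against 100 nM. Pan2 of the deadenylase complex, which has a Usp fold, was at -0.27, Uchl1 at -0.19, Atxn3 at 0.21, the JAMM protein Mpnd at -0.19 and Mindy4 at -0.30. With 1 nM against ethanol Uchl5, which works at the proteasome, differed by 0.23 and Otub2 by 0.29, and Mpnd by -0.31 and Pan2 by -0.28. Of 15 cofactors of Usp enzymes 0 likewise passed 1.5-fold in any comparison. All of them lay at or above the 75th percentile, so this count too is near the background. Atxn7l3 of the Usp22 module was lower with 100 nM than in ethanol by -0.28. With 1 nM against ethanol Atxn7 differed by -0.39 and Wdr20 by 0.36. The E1 enzymes Uba6 and Uba7 differed by -0.14 and 0.08 with 100 nM against ethanol.

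Among the proteins tied to Usp2, 9 of 12 on the array entered, and 2 were 1.5-fold higher with 100 nM than in ethanol, Per1 and the ENaC subunit gene Scnn1a. Of all genes that entered 2.39% were higher by as much. Of those between the filter and the 75th percentile, where both genes lie, 248 of 4121 were. Scnn1a was just past the threshold, at 0.59, and Per1 had been picked as a hormone-responsive gene. Per1, a clock gene whose protein Usp2 deubiquitinates, read 231 in ethanol, 224 with 1 nM, 527 with 100 nM and 349 with spironolactone. Scnn1a read 58.2, 89.3, 87.5 and 99.2 in that order, close to the filter, and the other ENaC subunit genes stayed under it. Cry1, a clock repressor, read 1175, 1177, 832 and 1140, so like the Usp2 probe set used it was lowest with 100 nM. Fasn, which encodes fatty acid synthase, read 3253, 3069, 2696 and 3446. The gene of the ligase Nedd4-2, Nedd4l, read 993, 972, 923 and 903, and Mdm2 read 1936, 2101, 1935 and 1900. Ccnd1, the gene of cyclin D1, read 2701, 2879, 2699 and 3466. Arntl, at 716, 665, 707 and 777, was lowest with 1 nM. Mdm4, at 830, 712, 758 and 686, was lowest with spironolactone.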

How the data were processed

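RNA of 4 samples, 250 ng each, was labelled as biotinylated cRNA and measured on 1 Affymetrix array each. The authors deposited 1 linear intensity per probe set and array, made with MAS5, per the submitters' processing notes; version, scaling target, detection calls and genome build are named in none of the sources used here. All 4 value columns belong to the series. Of 45101 probe sets, 64 were controls and were left out. Gene symbols were those of the platform table, which gave 34945 probe sets 1 symbol, and all 47 Usp symbols matched RefSeq by Entrez identifier with 0 changed. The 2 probe sets that name a Usp gene beside another were not used.

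Differences are of log2 intensity, with no pseudocount and no further scaling, in Python 3.11.15 with pandas 2.3.3. Genes entered where their mean log2 reached the median over probe sets. A member counted as different at 1.5-fold; with 1 array per treatment no p-value or error can be given, and precision is limited by that number. Roles, lists and members were chosen with earlier results of these data known. All members may be named. Described in full are Usp2, Usp8, Usp10, members past 1.5-fold and the 3 highest and 3 lowest of each comparison. Of other lists some of the largest differences are named, but not those of the cell type markers. Further genes were chosen after their values were seen. Promoter windows and names are RefSeq, GRCm38.p6. Alternatives were quantile normalization, median centring, the median over probe sets, no filter, a filter at the 75th percentile, a floor, an offset of 50 and a lower fold threshold (log2 difference of 0.32).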

Additional observations from a re-analysis of the deposited data

How the results depend on the processing

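No paired analysis was possible because each treatment has 1 array. The members' median differences stayed between -0.05 and 0.07 under every alternative run. Counts of members past 1.5-fold are small and moved easily. With 100 nM aldosterone against ethanol, 0 members were lower after quantile normalization, with the filter at the 75th percentile and with 50 added. With 50 added and at the 75th percentile 0 were also lower with 100 nM than with 1 nM, and at the 75th percentile 0 were higher with spironolactone than with 100 nM, since Usp2 lies under it. Median centring brought 1 member (Usp30) above 1.5-fold between 100 nM and 1 nM.

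With the median over probe sets, dim ones included, 1 member was higher (Usp43) and 2 lower (Usp19 and Usp42) with 100 nM against ethanol. The counts were 1 (Usp43) and 2 (Usp20 and Usp49) with 1 nM against ethanol, 2 higher with 100 nM than 1 nM (Usp20 and Usp49) and 2 lower with spironolactone than 100 nM (Usp20 and Usp43). Usp42 took the place of Usp2 as the 1 member lower with 100 nM than 1 nM and the 1 higher with spironolactone than 100 nM. Usp2 itself then differed by -0.32 with 1 nM against ethanol, -0.0087 between 100 nM and 1 nM and 0.50 with spironolactone against 100 nM. Without a filter the dimmest genes made the counts: 2 higher and 3 lower with 100 nM against ethanol, 1 and 2 with 1 nM against ethanol, 2 higher with 100 nM than 1 nM, 2 and 2 with spironolactone against 100 nM, and 1 and 4 with spironolactone against ethanol. With a log2 difference of 0.32 as the threshold, 1 member was higher with 100 nM than ethanol (Usp8) and 1 with 1 nM than ethanol (Usp3). Between the doses 1 was higher and 4 lower with 100 nM than 1 nM. With spironolactone 1 was lower than with 100 nM (Usp20), and against ethanol 1 was higher (Usp53) and 1 lower (Usp20). In either direction 2.4% to 11.9% of members passed this threshold per comparison, beside 13.2% to 14.9% of the genes that entered. At matched signal, 0% to 9.09% of the 33 bright members passed, beside 3.71% to 4.43% of bright genes. Of the 9 dimmer members 0% to 22.2% passed, beside 29.1% to 32.5% of genes of that level. The bright members' share was higher than that of bright genes between the doses (9.09% against 3.71%) and lower in the other comparisons. These gaps were not tested. No share over all genes is given for the median over probe sets or without a filter, so those counts single out no member. Under all settings run for single genes, Usp2 kept its direction with 100 nM against ethanol (-0.60 to -0.33) and with spironolactone against 100 nM (0.50 to 0.87). So did Usp8 with 100 nM against ethanol (0.36 to 0.51). An offset or a floor cannot turn a sign, and every setting reuses the same 4 arrays. The kept directions therefore do not show that the differences would recur.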
